A study of Arabidopsis thaliana with 6 samples.

Results

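The serine carboxypeptidase-like (SCPL) genes of Arabidopsis thaliana form a large family, and this account follows 29 of them through the cotyledons of 3 genotypes. The members are all genes that the array's annotation gives as the single gene of a probe set under a symbol beginning with SCPL or scpl. Each of the 29 had 1 probe set, out of 13356 distinct genes named singly and 22746 probe sets in all. A further 22 loci on a list of 51 known family loci are not members, among them SNG1 and BRS1, and 3 of these share a probe set with another gene. The annotation used gives no gene for 8730 of the 22746 probe sets, so a gene not named here may still be on the array. Members are spelled as in the array's annotation, and their AGI locus names give the chromosome.

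SCPL proteins share the fold and the serine, aspartate and histidine catalytic triad of secreted carboxypeptidases, which remove amino acids from the C-terminal end of proteins. A part of the family has turned to acyl transfer and moves sinapoyl or benzoyl groups from glucose esters onto small molecules. SNG1 makes sinapoylmalate, a sunscreen of cotyledons and leaves, and SCPL19 (SNG2) makes sinapoylcholine in seeds, while BRS1 was found through brassinosteroid signalling. SCPL49 is carboxypeptidase Y (CPY), an enzyme of the plant vacuole. The substrates of most of the other members described here are not well known, so they are introduced by locus.

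Cotyledons of ecotype Col-0 were collected after 4 days on medium with 100 mM sucrose, in days of 16 h light at 25 °C and 100 µmol photons (per square metre, per second), with nights of 8 h at 22 °C. The wild type carried neither mutation, sicy-192 carried that allele alone, and the double mutant carried sicy-192 and gun1-101. The sicy-192 allele is known as a gain-of-function form of a plastid invertase that turns cotyledons yellow on sucrose, and GUN1 is a plastid protein of signalling from plastid to nucleus. Each genotype had 2 arrays, labelled biological replicates, and nothing says whether the plants were raised separately. By their labels the double mutant and sicy-192 differ in gun1-101. Differences between their arrays from growth or RNA preparation cannot be told apart from those of the allele. Between the double mutant and the wild type both alleles differ, and gun1-101 alone was not analysed here.

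The values are linear signals, 1 per probe set, brought to a trimmed mean of 500 on every array. A change is a difference in log2(signal + 16), tested with limma across 14785 probe sets and called at an adjusted p under 0.05. No named probe set for GUN1 or the invertase gene INV-E was used here, so the genotypes were not checked through these genes. All 5 named leaf marker genes were bright. All were called lower in sicy-192 (RCA not under 3 of the alternatives), against 9.21% of all probe sets. Their summed signal was 102000 to 133400 in wild type, 33360 to 43640 in sicy-192 and 61290 to 76080 in the double mutant. The 2 named root markers, EXPA7 and CEP5, were both dim, with summed signals of 3.753 to 33.51 over the 6 arrays. Of the 2 named epidermal and guard cell markers FAMA was lower in sicy-192 (log2 change -0.71, adjusted p = 0.0417 in limma, lost under 8 alternatives), SPCH was not called, and no seed storage or vascular marker was named. On the array, a 25S ribosomal RNA control had signals of 451.6 and 1763 in wild type, 1378 and 1173 in sicy-192, and 7778 and 8361 in the double mutant. In 1 probe set for the 3′ part of the spike-in control bioB, signals were 313 to 391 on the replicate 1 arrays and 51.6 to 68.8 on the replicate 2 arrays. In another they were 270.7 to 349.5 and 21.5 to 28.7. The part of these shifts in the results below was not tested, and in whole cotyledons fewer cells of a type and less RNA per cell cannot be told apart.

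Of the 29 members 13 were bright enough to be tested, and 16 were dim. The tested genes had a mean log2 value above 6.051, which corresponds to a signal of 50.3. The dimmest tested gene was SCPL27 (7.275), and the brightest dim gene was scpl47 (5.908). The family lies on all 5 chromosomes, with 6, 7, 8, 3 and 5 members on chromosomes 1 to 5. Only 2 pairs of members are next to each other in the RefSeq order of protein-coding genes, scpl22 with scpl23 and scpl28 with scpl26, and in the second pair scpl26 was tested and scpl28 was dim.

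**Figure D1:**
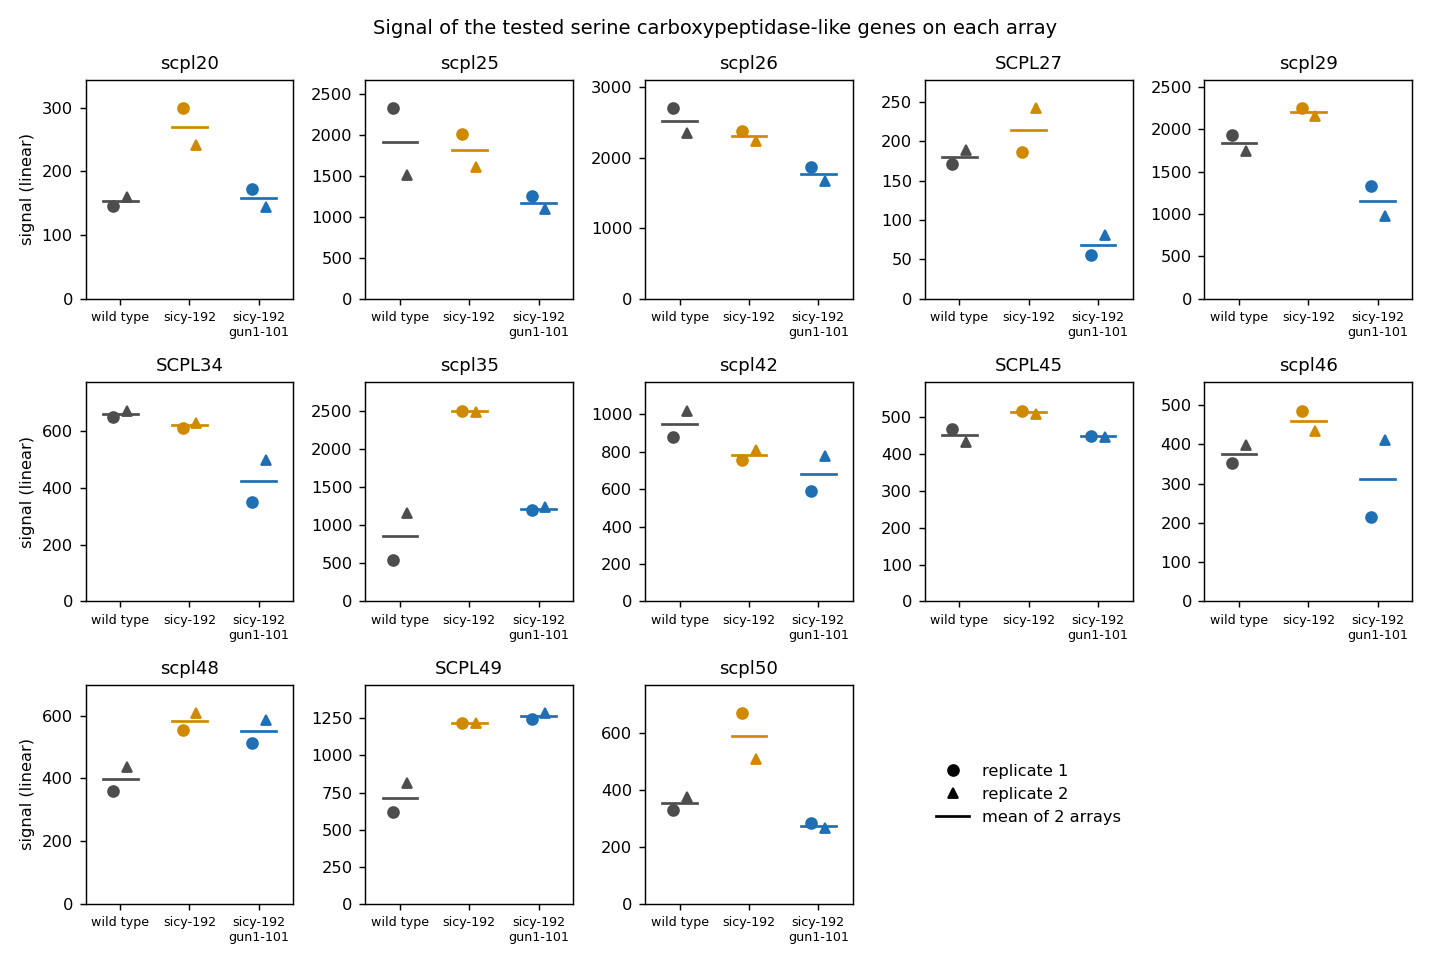
Linear signal (y axis, from 0) of each of the 13 tested genes in the 3 genotypes, with circles for replicate 1, triangles for replicate 2 and a bar at the mean of 2 arrays. scpl35 stands highest in sicy-192 (2498 and 2489), SCPL27 lowest in the double mutant (55.7 and 80.5), and SCPL49 is high in both mutants.

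In sicy-192 against wild type, 5 of the 13 tested genes rose (38.5%, against 13.8% of all probe sets called higher) and 0 fell (9.21% of all probe sets were called lower). The 5 were scpl35, SCPL49, scpl20, scpl50 and scpl48. At an unadjusted p under 0.05 in limma, 5 were higher (24% of all probe sets) and 0 lower (13% of all probe sets). The median of the 13 tested genes was 0.26 on the log2 scale, beside 0.16 for all tested probe sets. Over all 29 members, dim ones included, the median was -0.01, beside 0.09 for all probe sets.

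The largest rise was that of scpl35 (AT5G08260, chromosome 5), with signals of 547 and 1164 in the wild-type arrays and 2498 and 2489 in the sicy-192 arrays. Both mutant arrays lay above both wild-type arrays, and the wild-type arrays themselves were more than a doubling apart. The mean went from 855 ± 436 to 2494 ± 6.75 (SD, n = 2 each), a log2 change of 1.62 ± 0.28 (standard error, adjusted p = 0.00344 in limma). The size depended on the array used, with a difference of 2.16 within the replicate 1 arrays and 1.09 within the replicate 2 arrays. It was the only rise in this comparison that stayed called under all the alternatives tried, with an adjusted p up to 0.0146.

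SCPL49 (AT3G10410, chromosome 3), the vacuolar carboxypeptidase Y, had signals of 616 and 817 in wild type and 1218 and 1221 in sicy-192. The groups did not overlap, and the log2 change was 0.77 ± 0.16 (standard error, adjusted p = 0.0087 in limma). Centring each array on its median took the adjusted p to 0.0519. Its neighbour in number, scpl48 (AT3G45010, chromosome 3), had signals of 359.9 and 438 in wild type against 556 and 608 in sicy-192. This log2 change of 0.53 ± 0.16 (adjusted p = 0.0439 in limma) did not hold under 10 of the alternatives (adjusted p up to 0.23).

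For scpl20 (AT4G12910, chromosome 4), the signals were 146 and 160.1 in wild type and 299 and 242 in sicy-192. Its log2 change was 0.75 ± 0.20 (adjusted p = 0.0237 in limma). For scpl50 (AT1G15000, chromosome 1), they were 328 and 377 in wild type and 669.7 and 508 in sicy-192, with a log2 change of 0.71 ± 0.18 (adjusted p = 0.0215 in limma). In both genes the sicy-192 arrays lay above the wild-type arrays, with replicate 1 the higher of the mutant pair. Quantile normalization ended both calls (adjusted p = 0.0553 and 0.0586), as did centring on the median (0.074 and 0.0803) and leaving out wild-type replicate 1 (0.096 and 0.0993). The count of 5 fell to 2 with quantile normalization, to 1 after centring on the median and to 3 without the brightness filter. All probe sets called fell as well, from 3402 (60% of them higher) to 2951 with quantile normalization (48% higher). They numbered 2745 after centring (31.4% higher) and 2614 without the filter.

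The other 8 tested genes were not called in this comparison, and their log2 changes ran from -0.27 (scpl42) to 0.28 (scpl46). The groups did not overlap for 8 genes that were higher in sicy-192 (61.5%, against 42.6% of all probe sets) and for 2 that were lower (15.4%, against 21.1%).

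**Figure D2:**
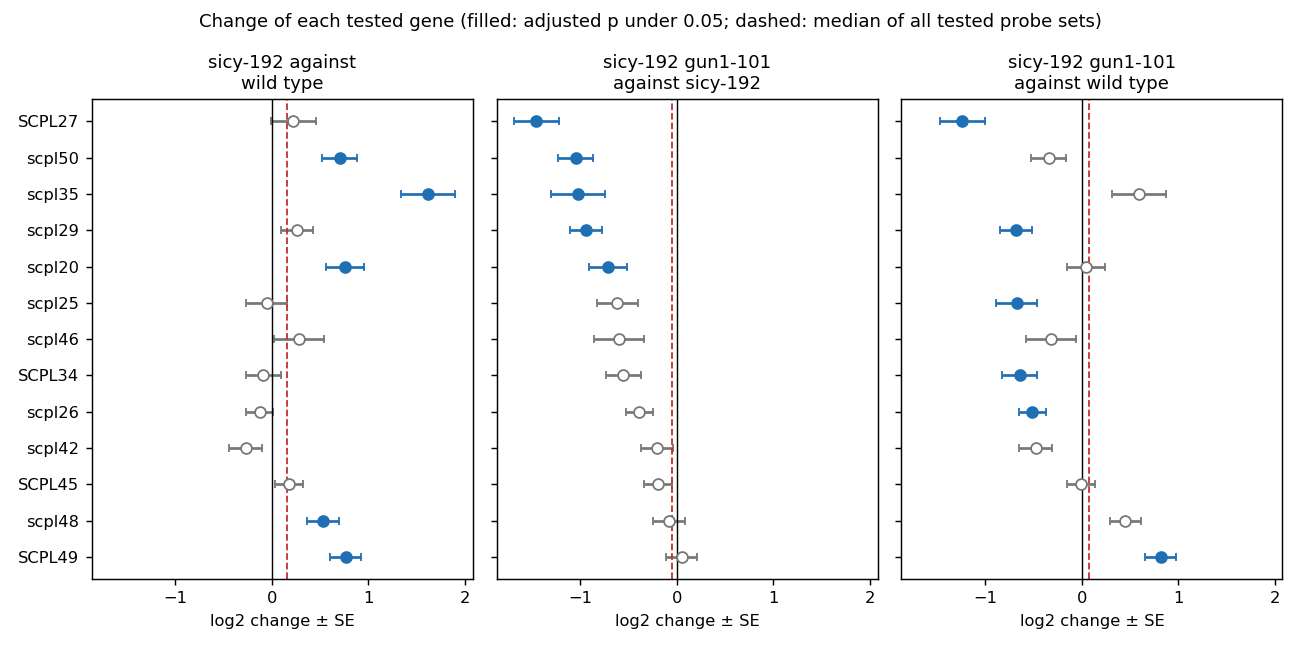
Log2 change with its SE (x axis) of the 13 tested genes in the 3 comparisons, ordered by the change between the double mutant and sicy-192. Filled points passed an adjusted p of 0.05 and dashed lines mark the median of all tested probe sets (0.16, -0.05 and 0.07): in the middle panel 12 of 13 genes lie below 0, and 5 of these are filled.

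Between sicy-192 and the double mutant, 5 of the 13 tested genes fell, namely SCPL27, scpl50, scpl35, scpl29 and scpl20 (38.5%, against 11.2% of all probe sets called lower), and 0 rose (9.54% of all probe sets were called higher). At an unadjusted p under 0.05, limma gave 9 lower (69.2%, against 19.2% of all probe sets) and 0 higher (15.1% of all probe sets). Called or not, 12 of the 13 changes were below 0 (92.3%, against 54.5% of all probe sets), and the exception was SCPL49. The median was -0.60, against -0.05 for all tested probe sets. Over all 29 members it was -0.20, beside -0.04 for all probe sets. With the replicate number as a block, 9 genes were called lower, adding scpl25, scpl26, SCPL34 and scpl46, while the share of all probe sets called lower went up as well, to 18.4%.

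SCPL27 (AT3G07990, chromosome 3) fell most. It had signals of 186 and 242 in the sicy-192 arrays and 55.7 and 80.5 in the double mutant, after 171 and 189 in wild type. The double mutant arrays were the lowest of the 6, and the wild-type and sicy-192 arrays overlapped. Its log2 change from sicy-192 was -1.46 ± 0.23 (standard error, adjusted p = 0.0028 in limma), with -1.50 within the replicate 1 arrays and -1.42 within the replicate 2 arrays. The call held in all the alternatives that tested the gene, with an adjusted p up to 0.021.

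The signals of scpl50 were 669.7 and 508 in sicy-192 and 283 and 266 in the double mutant, a log2 change of -1.05 ± 0.18 (adjusted p = 0.00398 in limma). In scpl29 (AT4G30810, chromosome 4), signals of 1929 and 1739 in wild type and 2248 and 2159 in sicy-192 stood against 1326 and 975 in the double mutant. That gave a log2 change of -0.94 ± 0.17 (adjusted p = 0.00452 in limma). Neither gene's groups overlapped, and both calls held under every alternative run, with an adjusted p up to 0.0324 for scpl50 and 0.0396 for scpl29.

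The signal of scpl35 went from 2498 and 2489 in sicy-192 to 1195 and 1238 in the double mutant. The arrays of each group lay close together and far apart from the other group, with a log2 change of -1.03 ± 0.28 (adjusted p = 0.0298 in limma). The shared estimate of the spread takes in the unequal wild-type pair: without wild-type arrays in the fit the adjusted p was 0.000928. The call did not hold under 7 alternatives (adjusted p up to 0.115). For scpl20 the double mutant arrays (173 and 144) were below the sicy-192 arrays (299 and 242) and overlapped those of the wild type. Its log2 change of -0.71 ± 0.20 (adjusted p = 0.0313 in limma) was lost under 6 alternatives, among them leaving out any 1 of the 4 arrays compared (adjusted p up to 0.196).

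Another 3 genes lay just above the threshold and passed with the replicate block. The first, scpl25 (AT3G02110, chromosome 3), had signals of 2019 and 1611 in sicy-192 and 1252 and 1093 in the double mutant (log2 change -0.62, adjusted p = 0.0684 in limma, and 0.0037 with the block). The second, scpl26 (AT2G35780, chromosome 2), had 2381 and 2236 in sicy-192 and 1867 and 1664 in the double mutant (-0.39, adjusted p = 0.0849 in limma, and 0.0235 with the block). SCPL34 (AT5G23210, chromosome 5) had 611 and 631 in sicy-192 and 349 and 499 in the double mutant (-0.56, adjusted p = 0.0589 in limma, and 0.0136 with the block). In all 3 genes both double mutant arrays were below both sicy-192 arrays.

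In scpl46 (AT2G33530, chromosome 2), 1 array made most of the difference. Its signals were 486 and 433 in sicy-192 and 214 and 411 in the double mutant. The log2 difference was -1.13 within the replicate 1 arrays and -0.07 within the replicate 2 arrays, and the change of -0.60 was not called (adjusted p = 0.137 in limma, and 0.0424 with the block). Without double mutant replicate 1 the change was -0.15, and without double mutant replicate 2 it was -1.05 and was called (adjusted p = 0.0192 in limma).

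SCPL49 and scpl48 had the smallest changes of the tested genes here. SCPL49 had signals of 1245 and 1285 in the double mutant beside 1218 and 1221 in sicy-192 (log2 change 0.05 ± 0.16, adjusted p = 0.856 in limma). The 2 sicy-192 arrays of scpl48 (556 and 608) and its 2 double mutant arrays (513 and 588) overlapped (-0.08 ± 0.16, adjusted p = 0.777 in limma). SCPL45 (AT1G28110, chromosome 1), with 518 and 510.3 against 450.3 and 447, and scpl42 (AT5G42240, chromosome 5), with 756 and 811 against 591 and 775, were not called either (-0.19 and -0.20).

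Across the family, the groups did not overlap for 10 genes that were lower in the double mutant (76.9%, against 34.8% of all probe sets) and for 1 that was higher (7.69%, against 27.6%). All 13 changes had the same sign within the replicate 1 and within the replicate 2 arrays, and their medians were -0.74 and -0.42. With 1 array left out, the median change of the 13 genes ranged from -0.68 to -0.47. When arrays were centred on their medians, 3 genes were called lower. All probe sets called then numbered 2976 (59.8% of them higher), against 3060 as reported (46.1% higher).

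**Figure D3:**
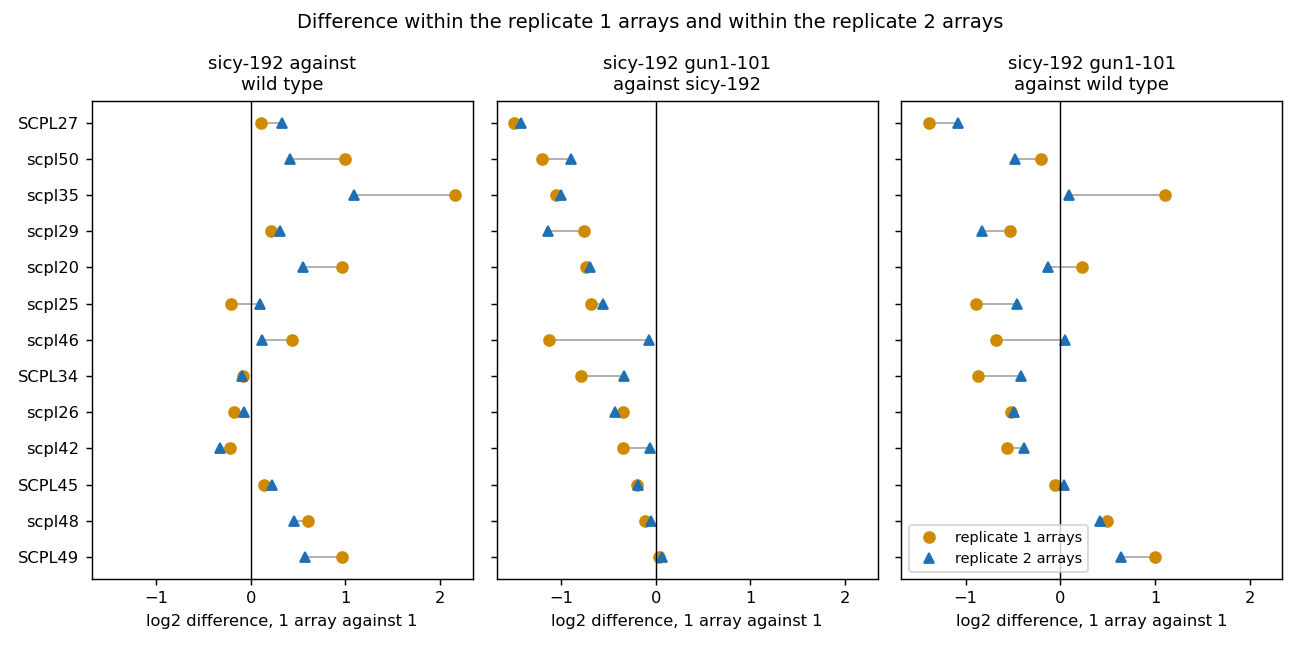
Log2 difference (x axis) between the replicate 1 arrays (circles) and between the replicate 2 arrays (triangles) of the groups compared, for the 13 tested genes. In the middle panel both points lie below 0 for 12 genes, with scpl46 the widest pair (-1.13 and -0.07), while in the left panel the widest pair is scpl35 (2.16 and 1.09).

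The double mutant was also set against the wild type. This comparison shares arrays with both others, so its calls are not separate evidence, and the values of each gene are given beside those above. Of the 13 tested genes 5 were lower (38.5%, against 12.8% of all probe sets called lower) and 1 was higher (7.69%, against 17.3% called higher). The median was -0.34, and that of all tested probe sets 0.07. Over all 29 members it was -0.34, beside 0.01 for all probe sets. The groups did not overlap for 7 genes that were lower (53.8%, against 28.9% of all probe sets) and for 3 that were higher (23.1%, against 37.9%).

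The genes lower in the double mutant than in wild type were SCPL27, scpl29, scpl25, SCPL34 and scpl26. None of these 5 was called between sicy-192 and wild type, where their log2 changes were 0.22, 0.26, -0.05, -0.09 and -0.13 in that order. SCPL27 was lower by a log2 change of -1.24 ± 0.23 (adjusted p = 0.00474 in limma), a call that held under the alternatives that tested it. The wild-type arrays of scpl25 (2327 and 1507) were far apart, and its change of -0.67 ± 0.21 (adjusted p = 0.0396 in limma) was lost under 5 alternatives. Those of scpl26 were 2698 and 2352 (log2 change -0.51 ± 0.14, adjusted p = 0.0244 in limma), and those of SCPL34 were 649.7 and 672 (-0.64 ± 0.18, adjusted p = 0.0265 in limma). For scpl29 the change was -0.68 ± 0.17 (adjusted p = 0.0151 in limma). Without wild-type replicate 1 the calls of scpl25, scpl26, scpl29 and SCPL34 were all lost, leaving SCPL27 as the 1 gene called lower. Without double mutant replicate 1 the count was 2.

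SCPL49 was the gene called higher in the double mutant than in wild type, with a log2 change of 0.82 ± 0.16 (adjusted p = 0.00555 in limma, up to 0.0382 under the alternatives). The carboxypeptidase Y gene was thus above both wild-type arrays in all 4 mutant arrays. For scpl48 the change was 0.45 (adjusted p = 0.0632 in limma, and 0.0164 with the block). The 3 other genes that rose in sicy-192 were not called between double mutant and wild type. Their changes were 0.04 for scpl20 (adjusted p = 0.89 in limma), -0.34 for scpl50 (adjusted p = 0.183) and 0.60 for scpl35 (adjusted p = 0.137, and 0.037 with the block). A missed threshold does not show equal levels, and for scpl35 the difference was 1.11 within the replicate 1 arrays and 0.09 within the replicate 2 arrays.

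By their calls the 13 genes fell into a few patterns, a description of the same values. Higher in sicy-192 and lower again in the double mutant were 3 genes (scpl20, scpl35 and scpl50). Higher in both mutants than in wild type was 1 gene (SCPL49), and called higher in sicy-192 alone was 1 (scpl48). Lower in the double mutant than in both other genotypes were 2 genes (SCPL27 and scpl29), and lower than wild type alone were 3 (scpl25, scpl26 and SCPL34). The remaining 3, scpl42, SCPL45 and scpl46, were called in no comparison. Of these, scpl42 had signals of 881 and 1019 in wild type, 756 and 811 in sicy-192, and 591 and 775 in the double mutant, with an adjusted p of 0.0603 in limma between the outer groups (log2 change -0.48, and 0.0119 with the block).

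**Figure D4:**
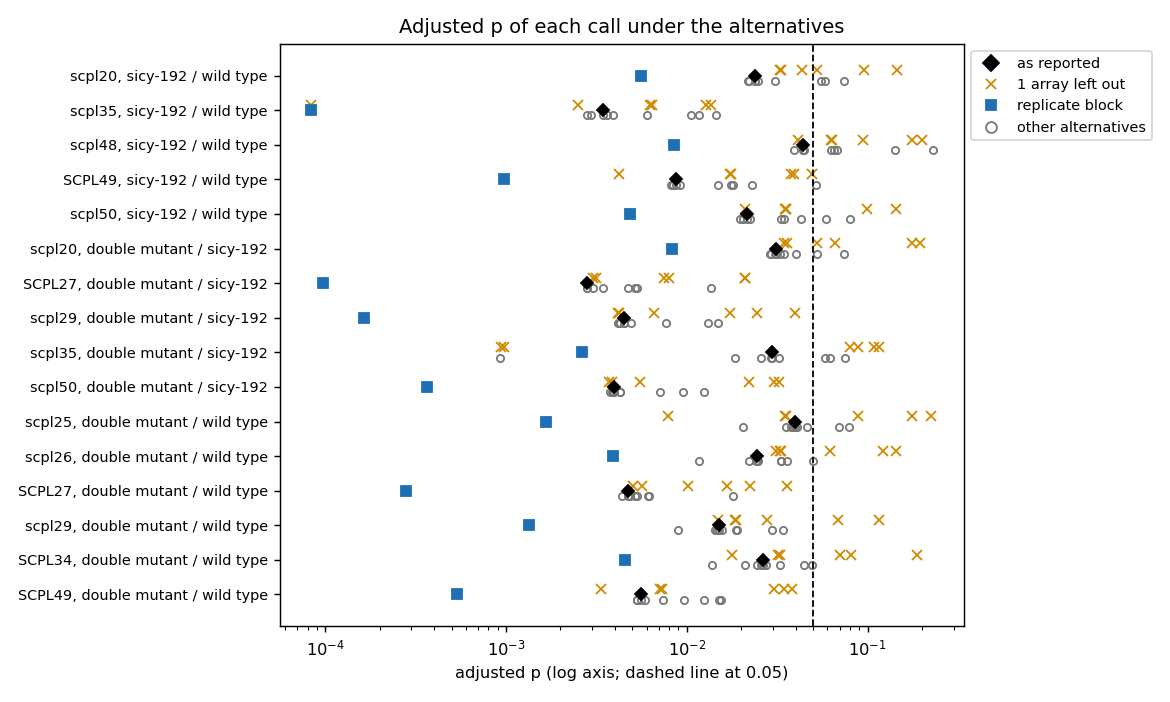
Adjusted p (log axis, dashed line at 0.05) of the 16 calls of tested genes as reported (diamonds), with 1 array left out (crosses), with the replicate block (squares) and under the other alternatives (open circles). SCPL27, scpl29 and scpl50 between double mutant and sicy-192 stay left of the line, as do SCPL27 and SCPL49 between double mutant and wild type and scpl35 between sicy-192 and wild type; the other 10 calls cross it at least once.

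The 16 dim members were scpl16, scpl18, scpl21, scpl22, scpl23, scpl28, scpl30, scpl31, SCPL32, scpl33, scpl38, scpl40, scpl41, SCPL43, scpl44 and scpl47. Their signals ran from 0.65 to 61.7 with a median of 16.6, and 47 of the 96 values were below the added 16. They include scpl16 and scpl18, the only members numbered below SCPL19 and so near the acyltransferases in the numbering. The median signal of the dim genes was 23 on the wild-type arrays, 17.4 on those of sicy-192 and 9.57 on those of the double mutant. These medians lie near the added 16. The same medians were not taken over all dim probe sets, and their order was not tested.

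When every probe set was tested without the brightness filter, 1 dim gene was called, in 1 comparison, where 5.43% of all probe sets were called lower. This was scpl21 (AT3G25420, chromosome 3), singled out after its values were seen, with signals of 24.1 and 22.5 in wild type, 31.7 and 34.4 in sicy-192, and 3.69 and 8.87 in the double mutant. The double mutant arrays were the lowest of the 6, and the log2 change from sicy-192 was -1.15 (adjusted p = 0.0372 in limma). All 6 values are near the added 16, so the size of this change depends on it. Without the filter 0 dim genes were called in the other comparisons (lowest adjusted p = 0.174 in limma between sicy-192 and wild type and 0.0786 between double mutant and wild type). Of all 22746 probe sets, 2614 and 3530 were called there in either direction. At an unadjusted p under 0.05 in limma there were 1 and 2 dim genes, and the share of all probe sets at that threshold was not computed without the filter.

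**Figure D5:**
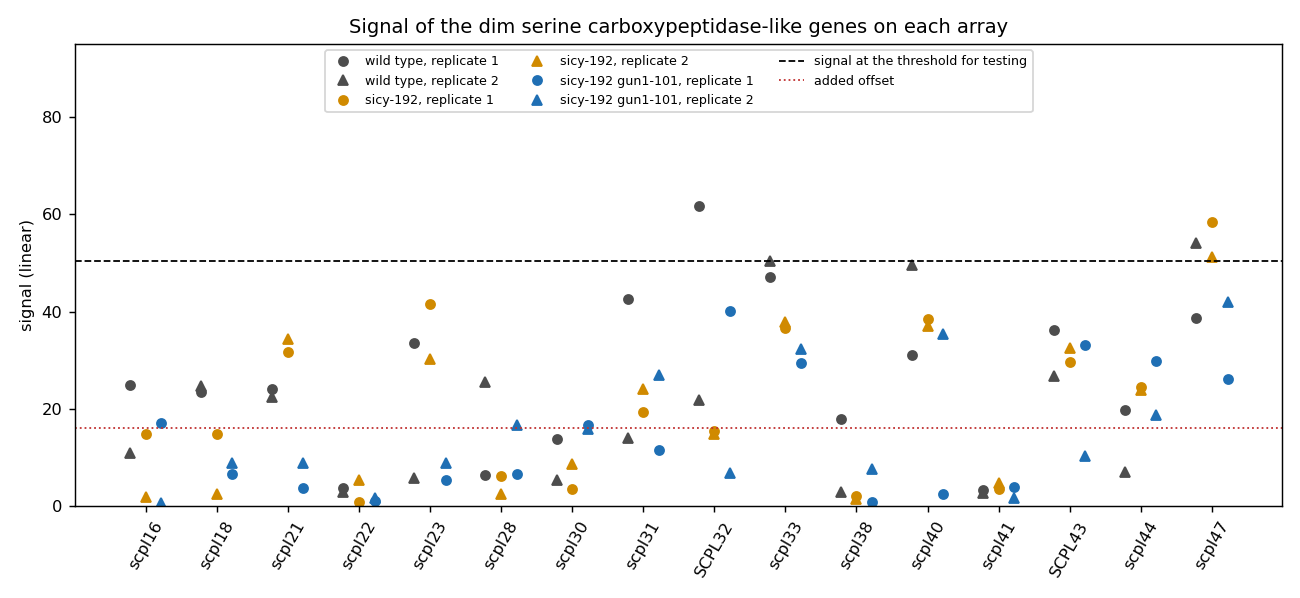
Linear signal (y axis) of the 16 dim genes on each of the 6 arrays, coloured by genotype, with circles for replicate 1 and triangles for replicate 2. The dashed line marks the signal of 50.3 at the threshold for testing and the dotted line the added 16; of the 96 values 5 are at or above 50.

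The genes that supply the acyltransferases of the family with substrates were sparsely named. Of 24 listed genes for phenylpropanoids and sinapate glucose esters 6 were named as the single gene of a probe set, and 4 were tested. None of the 4 was called between sicy-192 and wild type in limma (13.8% of all probe sets were higher and 9.21% lower). Of these 4, 1, HCT, had an unadjusted p under 0.05 in limma (log2 change -0.46, adjusted p = 0.0571, and 0.0129 with the block). At that unadjusted threshold 13% of all probe sets were lower and 24% higher. From sicy-192 to the double mutant 1 rose (9.54% of all probe sets were called higher) and 0 fell (11.2% were called lower). This was UGT84A3, a glycosyltransferase that makes glucose esters of hydroxycinnamic acids, which went from 144 and 209 in sicy-192 to 1341 and 1441 in the double mutant, with 208 and 237 in wild type (log2 change 2.89, adjusted p = 7.68e-05 in limma). The other tested members were ALDH2C4 (0.40, adjusted p = 0.0704 in limma, and called with the block at 0.019), which makes ferulic and sinapic acid from their aldehydes, the acyltransferase HCT (0.32) and UGT84A4 (-0.13).

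Other vacuolar proteases can be set beside carboxypeptidase Y. Of 9 listed genes 3 were tested, of which 2 rose in sicy-192 (13.8% of all probe sets were called higher). In the double mutant 1 was higher than in sicy-192 (9.54% of all probe sets) and 3 were higher than in wild type (17.3%). The aspartic protease APA1 had log2 changes of 0.59 from wild type to sicy-192 (adjusted p = 0.0298 in limma, lost under 6 alternatives) and 0.07 on to the double mutant. The processing enzyme BETA-VPE rose by 1.20 (adjusted p = 0.00481 in limma) and then had a change of -0.08. GAMMA-VPE had changes of -0.10 and then 1.05 (adjusted p = 0.00241 in limma). APA1 and BETA-VPE, like SCPL49, were called higher than wild type in both mutants and were not called between the mutants. The call of APA1 between double mutant and wild type was lost without wild-type replicate 2 or double mutant replicate 1 (adjusted p up to 0.0959 in limma). ALPHA-VPE was too dim on average to be tested: its signals were 8.93 and 11 in wild type, 208 and 255 in sicy-192, and 14.2 and 11.5 in the double mutant, and without the filter its change was 3.25 and then -3.09 (adjusted p = 0.000827 and 0.00186 in limma). The wild-type and double mutant signals of ALPHA-VPE are below the added 16, which sets the size of these changes and makes them understatements.

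Of 15 listed genes of anthocyanin synthesis and decoration, a pathway whose pigments carry sinapoyl groups, 5 were named and all 5 were tested. These 5 all rose in sicy-192 (13.8% of all probe sets). All were also called higher in the double mutant than in wild type (17.3% of all probe sets). Between the mutants 0 were called (9.54% of all probe sets were higher and 11.2% lower). The median log2 change between the mutants was 0.23, after 1.57 from wild type to sicy-192. The widest changes between the mutants were those of the glycosyltransferases UGT75C1 (-0.36) and UGT78D2 (0.32), the second of which was called with the block (adjusted p = 0.0499 in limma). The rise of AT5MAT in sicy-192 did not hold without sicy-192 replicate 2 (adjusted p = 0.0511 in limma), nor did the call of UGT75C1 between double mutant and wild type without double mutant replicate 2 (adjusted p = 0.0779 in limma). Of 12 listed genes for glucosinolates, to which the family adds benzoyl groups in seeds, 1 was tested. BCAT4, an aminotransferase of aliphatic glucosinolate synthesis, had signals of 4369 and 1828 in wild type, 1561 and 769 in sicy-192, and 394 and 204 in the double mutant. Its log2 change from sicy-192 to the double mutant was -1.89 (adjusted p = 0.0166 in limma). That call was lost without the filter and without either sicy-192 replicate 1 or double mutant replicate 2. From wild type to sicy-192 the change was -1.35 (adjusted p = 0.0565 in limma, and 8.76e-06 with the block). From wild type to the double mutant it was -3.24 (adjusted p = 0.00109 in limma), a call that held under every alternative.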

How the data were processed

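Biotin-labelled total RNA of 6 samples was hybridised to 6 one-colour arrays, per the labels' protocols. The deposited table holds linear signal intensities made by the authors with GCOS, named without a version in the submitters' processing notes. The algorithm is not given in the sources used here. In the deposited columns the mean is 500 once 2% of values are cut from either end. Of 22810 rows 64 are control probe sets. Here this trimmed mean was set to exactly 500 per array and values became log2(signal + 16), so changes of dim probe sets are understated. Probe sets above the 35th percentile of mean log2 value (14785) were tested across all genes with limma 3.58.1 in R 4.3.3 (lmFit, eBayes with a trend, two-sided, all 6 arrays in 1 fit), with Benjamini-Hochberg adjustment over all of them. Residual degrees of freedom were 3 and prior ones 6.27. P-values reflect only the spread between these arrays, which may be technical, and the number of arrays limits the precision. The code was tested on simulated data. Gene names come from the platform's annotation and loci from RefSeq (TAIR10.1); as the files name no build, no coordinates are given.

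The reported fit has no replicate term. Same-numbered arrays nevertheless deviated together: the differences between replicate 1 and replicate 2 correlated between genotypes at r = 0.436, 0.329 and 0.374 over 14785 probe sets, which are not independent. The fit with the replicate number as a block is therefore given beside each result whose call it changes. Every tested member is named, per-array signals are given for called ones, and up to 4 genes are named per further list. The members, lists and tests were chosen with earlier results of these data known. Alternatives were other offsets, filters, scalings and thresholds, no variance trend, only the 2 groups compared, the replicate block, and leaving out each array.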

Additional observations from a re-analysis of the deposited data

How the results depend on the processing

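Of the 16 calls of SCPL genes 6 held under every alternative that tested them and 10 were lost at least once, while 8 of 23 uncalled changes passed at least once, and 0 called changes turned in sign. For sicy-192 against wild type, the 5 genes called higher became 3 without the filter, 2 after quantile normalization and 1 with arrays centred on their medians, and ranged from 2 to 4 with 1 array left out (0 to 0 for genes called lower). The median of 0.26 was -0.0087 without the filter, which takes in the dim genes, 0.12 with quantile normalization and 0.071 after centring, and 0.24 to 0.29 with 1 array left out. All probe sets called numbered 3402, 5412 with the replicate block and 2075 to 2966 with 1 array left out. Over all tested probe sets the median of 0.16 became 0.05 with quantile normalization and -0.03 after centring, and the share of calls that were higher went from 60% to 48% and 31.4%. For the double mutant against sicy-192, the 5 genes called lower became 3 after centring, 9 with the replicate block and 8 at a threshold of 0.10, and ranged from 3 to 6 with 1 array left out (0 to 0 for genes called higher). The median was -0.20 without the filter and -0.68 to -0.47 with 1 array left out. All probe sets called numbered 3060, 4917 with the block and 1456 to 3256 with 1 array left out. Higher calls made up 46.1% of the 3060, and 59.8% of the 2976 probe sets called after centring. At a threshold of 0.10 all probe sets called numbered 4284. For the double mutant against wild type, the 1 gene called higher became 3 with the block and 2 at a threshold of 0.10, and ranged from 1 to 2 with 1 array left out, and the genes called lower from 1 to 5. The median was -0.48 with quantile normalization and -0.43 to -0.25 with 1 array left out, and all probe sets called ranged from 2309 to 4331, against 4450. With the block all probe sets called numbered 6362, and at a threshold of 0.10 they numbered 5826. The share of calls that were higher went from 57.5% to 45.1% after centring. Apart from the changes given here and beside the genes concerned, the replicate block changed no call of a tested SCPL gene. The causes of these shifts were not tested. The mean over a gene's probe sets was not run, since each gene has 1. With a single array left in a group, that array was assumed to vary like the other groups.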

Other observations

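The 2 probe sets that the annotation gives to several genes including SCPL genes, and that were therefore not counted as members, were dim on all 6 arrays. The one shared by scpl36 and scpl37 had signals of 0.979 to 3.22, and the one shared by scpl39 and AT3G56540 had signals of 1.56 to 6.09.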
